A study of Mus musculus with 6 samples.

Results

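The 9 long noncoding RNA genes Malat1, Neat1, Gas5, Pvt1, Gm26917, Meg3, Rian, Miat and Snhg11 were followed by symbol through libraries from mouse cerebral cortex. They are 9 of the 53379 genes in the count tables, and all 9 passed the filter on low counts that left 17221 genes for testing. Malat1, Neat1, Gas5, Pvt1 and Gm26917 were treated as ubiquitous, and Meg3, Rian, Miat and Snhg11 as neuronal. Total RNA was sequenced in 3 libraries labelled GTF2ird1-/- (replicates 5, 6 and 7) and 3 labelled wild type (replicates 1, 3 and 4), all from C57BL/6 mice of 2 months. Gtf2ird1 is a transcription factor gene of the segment deleted in Williams syndrome, and the series title describes the cells as Gad2+ neurons isolated from these mice. The sources used here do not give how the cells were isolated, which part of the gene was mutated, or whether each library came from its own animal. The p-values therefore measure the spread between these libraries, part of which may be technical.

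Long noncoding RNAs work as RNA molecules without being translated, and several of them build or occupy structures of the cell nucleus. Malat1 gathers in nuclear speckles, bodies rich in splicing factors, and Neat1 is the RNA scaffold of paraspeckles. Gas5 and many genes named Snhg carry small nucleolar RNAs (snoRNAs), which guide the chemical modification of ribosomal RNA (rRNA), in their introns. Meg3 and Rian are transcribed from the maternal chromosome of the imprinted Dlk1-Dio3 domain and are abundant in neurons. Miat, also called Gomafu, forms nuclear foci in neurons, and Pvt1 lies beside the Myc oncogene.

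Depth and composition differed between the libraries. Total gene counts lay between 16685959 and 30544144 in the libraries labelled knockout and between 13627501 and 28933624 in wild type. Gtf2ird1 did not separate the groups, with 49.7, 40.6 and 48.8 CPM (counts scaled to a common library size with TMM factors) in knockout replicates 5, 6 and 7, against 23.3, 31.5 and 52.7 CPM in wild type replicates 1, 3 and 4 (edgeR adjusted p = 0.703), and so was no lower in the libraries labelled knockout. A count over the whole gene does not check a mutation of unknown position. Xist, the noncoding RNA of the inactive X chromosome, had 0, 3 and 72465 counts in knockout replicates 5, 6 and 7, against 45056, 29732 and 63358 in wild type replicates 1, 3 and 4. The groups thus differed in which libraries held Xist, and the labels give no sex. CT010467.1, an rRNA gene, took 0.161%, 6.20% and 0.976% of gene counts in knockout replicates 5, 6 and 7 and 0.0459%, 17.5% and 1.51% in wild type replicates 1, 3 and 4. Microglial transcripts outweighed those of the cell type in the title: 15 microglia and macrophage markers summed to between 29966 and 37308 CPM in the knockout group and between 29244 and 46640 CPM in wild type, whereas 11 GABAergic markers, with Gad1 and Gad2 among them, summed to between 590.0 and 1085 CPM in the knockout group and between 259.9 and 848.1 CPM in wild type.

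Scaled to exon length, the 9 genes fell into a very abundant pair and 7 genes of much lower level. Gm26917 had a median of 2980 CPM per kilobase over the 6 libraries (1553 to 6907) and Malat1 2132 CPM per kilobase (1757 to 2301), and these ranges overlapped. Malat1 and Gm26917 had ranks 3 and 4 of all tested genes by mean CPM, and together they held between 65.0% and 70.6% of all counts on genes of long noncoding RNA biotypes in each library. The median of Malat1 was 98.2 times that of Gas5, the next gene, which had 21.7 CPM per kilobase (18.3 to 24.4). Below Gas5 came Miat at 15.3 CPM per kilobase, Meg3 at 13.0, Neat1 at 11.8, Rian at 7.87, Snhg11 at 1.97 and Pvt1 at 0.848, each a median over 6 libraries. The step between Malat1 and Gas5 was the only place in this order where the ranges of neighbours did not overlap. The lengths merge all annotated exons of a gene, 3760 of the 4118 bases that Gas5 spans. The order and the size of this step could differ with the lengths of the transcripts present, which were not measured.

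**Figure D1:**
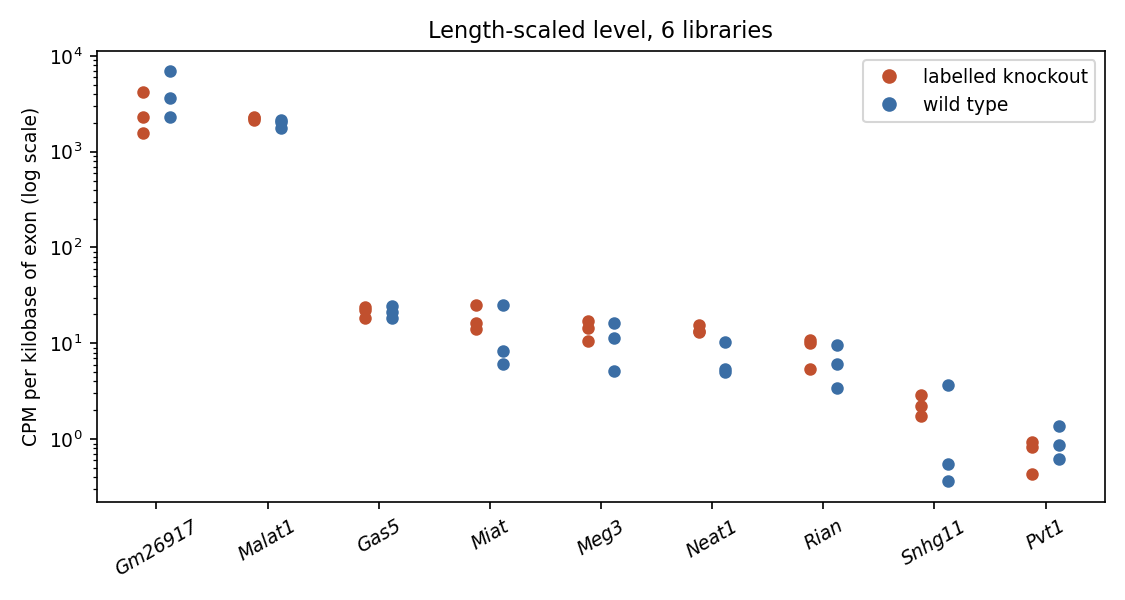
Level of each long noncoding RNA per kilobase of merged exon length (CPM per kilobase, log axis), 1 point per library, with the libraries labelled knockout left of wild type. Gm26917 and Malat1 lie above 1553 CPM per kilobase in every library, and the other 7 genes at 25.2 or less.

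Malat1 (chromosome 19, 5795690 to 5802672, minus strand, GRCm38) and Neat1 (5824708 to 5845478, same strand) are neighbours, each a single merged exon. As background, neither long form ends in a regular poly(A) tail: a tRNA-like structure is cut off and the new end is protected by a triple helix of U-rich and A-rich stretches. This matters for counting, because such RNAs are kept when libraries are made from total RNA. The stretches are printed from the GENCODE M21 transcripts as DNA letters, 5′ to 3′, and capitals mark the 3 runs of at least 11 identical bases that the last 200 bases of Neat1 share with Malat1, TTTCTTTTCCTGA, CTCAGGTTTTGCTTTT and AAAAAGCAAAA.
Malat1: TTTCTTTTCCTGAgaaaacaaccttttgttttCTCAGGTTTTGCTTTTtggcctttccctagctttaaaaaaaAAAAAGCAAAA
Neat1: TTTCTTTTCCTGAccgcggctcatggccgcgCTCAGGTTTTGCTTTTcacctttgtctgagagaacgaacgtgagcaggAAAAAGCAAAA
The Malat1 stretch lies at chr19:5795982-5796065 and the Neat1 stretch at chr19:5824708-5824797, the last 90 bases of the annotated gene. Searched in this order on the transcript strand, with gaps of up to 40 and 60 bases, the 3 runs occurred together in 2 of 55341 genes (0.00361%), the pair from which they were taken.

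Malat1 was the steadiest of the 9 genes. It had 16071, 14844 and 15640 CPM in knockout replicates 5, 6 and 7, against 12267, 14935 and 14265 CPM in wild type replicates 1, 3 and 4. The groups overlapped and wild type replicate 1 was lowest. The means were 15519 ± 623 CPM in the libraries labelled knockout and 13823 ± 1388 CPM in wild type (SD, n = 3 each), which gave a log2 fold change of 0.17 ± 0.22 with an edgeR adjusted p of 0.821 (the error is the SE) and a 95% interval of the fold of 0.784 to 1.61.

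Neat1 showed the clearest separation. It had 281.2, 272.2 and 324.3 CPM in knockout replicates 5, 6 and 7, against 216.0, 113.0 and 105.2 CPM in wild type replicates 1, 3 and 4. Every library labelled knockout lay above every wild type library, and wild type replicate 1 lay between the other wild type libraries and the knockout group. The means were 293 ± 27.8 CPM in the knockout group and 145 ± 61.8 CPM in wild type (SD, n = 3 each). The log2 fold change of Neat1 was 1.01 ± 0.28, with an edgeR unadjusted p of 0.00831 and an adjusted p of 0.637, and the fold of 2.02 had a 95% interval of 1.27 to 3.20. Whether Neat1 passed depended on wild type replicate 1: without it Neat1 was called with a log2 fold change of 1.42 (edgeR adjusted p = 0.0263), while over all its alternatives the adjusted p ran from 0.0263 to 1. Among all tested genes, 6.34% were fully separated with the knockout group higher and 13% in either direction.

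Relative to its neighbour Malat1, Neat1 differed less cleanly between the groups. The log2 ratio of Neat1 to Malat1 counts was -5.84, -5.77 and -5.59 in knockout replicates 5, 6 and 7 and -5.83, -7.05 and -7.08 in wild type replicates 1, 3 and 4. Wild type replicate 1 reached the range of the libraries labelled knockout. The difference of the means was 0.92 (exact permutation test, two-sided p = 0.2, where 0.1 is the smallest that 3 against 3 allows).

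Neat1 was lowest in the libraries where astrocyte, oligodendrocyte and vascular transcripts were lowest. The 12 astrocyte markers, none of them at 0 in every library, summed to 6403, 3562 and 3994 CPM in knockout replicates 5, 6 and 7, against 3642, 624.2 and 289.5 CPM in wild type replicates 1, 3 and 4. The 9 tested of 10 endothelial and mural markers summed to 227.8, 151.0 and 194.9 CPM in the libraries labelled knockout, against 160.2, 102.6 and 61.2 CPM in the same wild type replicates. Wild type replicates 4 and 3 were lowest for Neat1 and for both marker sums. The 10 oligodendrocyte markers were also lowest there. They summed to 550.9 and 166.9 CPM in wild type replicates 3 and 4, against 2015 to 2437 CPM in the other libraries. The 6 oligodendrocyte precursor markers gave 6.62 and 61.2 CPM, against 128.5 to 276.5 CPM. Glutamatergic neuron markers were lowest there too, whereas mature, GABAergic and immature neuron markers were among the highest in wild type replicate 4. None of the 12 astrocyte markers passed by edgeR, DESeq2 or limma-voom. At an unadjusted p under 0.05 there were 5 by edgeR, where 7.25% of all tested genes were, 8 by DESeq2, where 9.17% were, and 12 by limma-voom, where 8.62% were. Without wild type replicate 1, the setting in which Neat1 was called, 8 of 12 passed as higher, where 1.77% of all tested genes did. Astrocyte markers were not alone in this. In that setting 4 of 10 oligodendrocyte, 1 of 6 oligodendrocyte precursor and 2 of 9 endothelial and mural markers also passed as higher. With all libraries, none of these passed by edgeR, DESeq2 or limma-voom. The 15 microglia and macrophage markers went the other way, with log2 fold changes all below 0 (median -0.24) of which 0 passed by edgeR, DESeq2 or limma-voom (0 at an unadjusted p under 0.05). Their sums were 29966, 37308 and 34389 CPM in knockout replicates 5, 6 and 7, against 46640, 45184 and 29244 CPM in wild type replicates 1, 3 and 4. Fewer cells of a type and less RNA per cell cannot be told apart in bulk libraries, and the part of these cell types in the Neat1 values was not tested. The protein-coding genes with the pattern most like Neat1, by the root mean square difference of centred log2 CPM over the 6 libraries, were Ttll7, a tubulin polyglutamylase (0.155), Col4a1, a basement membrane collagen (0.158), and Slc16a1, a lactate transporter (0.172), against a median of 0.683 for all 10765 candidates.

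Proteins of the bodies these RNAs belong to were near the background. None of 14 paraspeckle protein genes and none of 14 nuclear speckle protein genes passed (edgeR, DESeq2 and limma-voom; 0 at an unadjusted p under 0.05). Their median log2 fold changes were 0.098 and -0.046, against -0.029 for all tested genes. Sfpq, an RNA-binding protein that paraspeckles need, had 462 ± 30.8 CPM in the libraries labelled knockout and 410 ± 40.8 CPM in wild type (SD, n = 3 each). Son, a core speckle protein, had 1285 ± 72.1 CPM in the libraries labelled knockout and 1455 ± 89.3 CPM in wild type (SD, n = 3 each). Its groups did not overlap, with knockout lower, and 13% of all tested genes did not overlap in either direction.

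Gas5 (chromosome 1, 161034422 to 161038539, plus strand) had nearly the same level in both groups. It had 83.0, 89.1 and 69.3 CPM in knockout replicates 5, 6 and 7, against 91.8, 80.3 and 68.7 CPM in wild type replicates 1, 3 and 4. The ranges lay almost on top of each other, and the estimate on the log2 scale was 0.0029 ± 0.16 (SE), with an edgeR adjusted p of 0.996 and a 95% interval of the fold from 0.773 to 1.30. Its sign turned under several settings. The annotation places 10 snoRNA genes inside Gas5, all with 0 counts in every library, and 17.8% of its exon bases are shared with snoRNA genes of the same strand. Reads on such bases can be set aside as ambiguous, and they are then missing from the level of Gas5. The genes most like Gas5 over the libraries were Fnta, a prenyltransferase subunit (0.032), Cnot11, of the CCR4-NOT deadenylase complex (0.037), and Tpd52l2 (0.038), in the same measure, for which the median of all candidates was 0.257.

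The snoRNA host genes as a list, with Gas5 and Snhg11 among them, gave no call. Of 21 listed, 16 were tested and 0 passed by edgeR, DESeq2 or limma-voom. By these tools 0 had an unadjusted p under 0.05, and the median log2 fold change by edgeR was 0.096. Without wild type replicate 1 there was 1 call as higher of 16 tested, where 1.77% of all tested genes were called higher. That call was Snhg11, itself among the 9 genes. Snhg17 had 23.0 ± 1.68 CPM in the libraries labelled knockout and 27.0 ± 3.08 CPM in wild type, and Snhg1 had 18.6 ± 3.57 CPM in knockout and 14.5 ± 4.17 CPM in wild type (SD, n = 3 each; edgeR adjusted p = 0.672 and 0.688). Snhg14, the host transcript of the imprinted Prader-Willi and Angelman region, had 59.0 ± 18.2 CPM in knockout and 40.4 ± 21.5 CPM in wild type (SD, n = 3 each; edgeR adjusted p = 0.703).

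Pvt1 (chromosome 15, 62037986 to 62378096, plus strand) was the scarcest, with 77, 110 and 186 counts in knockout replicates 5, 6 and 7 and 125, 107 and 106 counts in wild type replicates 1, 3 and 4. In CPM this was 3.01, 6.59 and 5.81 in the knockout replicates, against 4.35, 9.70 and 6.05 in the wild type replicates. The groups overlapped, and the estimate on the log2 scale was -0.37 ± 0.42 (SE), with an edgeR adjusted p of 0.783. Its neighbour Myc, a transcription factor of growth, had 6.84, 8.57 and 10.5 CPM in knockout replicates 5, 6 and 7, against 9.29, 29.6 and 7.53 CPM in wild type replicates 1, 3 and 4 (edgeR adjusted p = 0.662). Wild type replicate 3 was the highest library for both genes. Of 9 genes beside Malat1, Neat1, Gas5, Pvt1, Miat and Snhg11 on the chromosome, Myc among them, 0 passed by edgeR, DESeq2 or limma-voom, 1 had an unadjusted p under 0.05 (7.25% of all tested genes did), and the median log2 fold change was -0.17. Nearest in pattern to Pvt1 were Gm3164 (0.134), Mlph, a melanosome transport protein (0.222), and Tmem52 (0.223), against a candidate median of 0.546.

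Gm26917 (chromosome 17, 39843013 to 39846341, plus strand) varied the most in absolute terms. It had 7748, 5171 and 14113 CPM in knockout replicates 5, 6 and 7, against 7676, 12092 and 22993 CPM in wild type replicates 1, 3 and 4. Replicate 7 was high within the knockout group and replicate 4 within wild type, and the groups overlapped. The estimate on the log2 scale was -0.66 ± 0.51 (SE), with an edgeR adjusted p of 0.702 and 0.279 to 1.43 as the 95% interval of the fold.

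The gene lies beside copies of ribosomal RNA genes. It ends 12 bases before Rn18s-rs5, annotated by RefSeq as a pseudogene (39846354 to 39848202), and the rRNA gene CT010467.1 has 39846353 as its lower end on the opposite strand. Reads from the rRNA precursor and from a separate noncoding RNA cannot be told apart by a count at this position. Gm26917 did not follow CT010467.1: there were 5.34, 0.0834 and 1.52 Gm26917 counts per CT010467.1 count in knockout replicates 5, 6 and 7, against 16.6, 0.0560 and 1.61 in wild type replicates 1, 3 and 4. Gm42418, on the plus strand of this locus (39846958 to 39848788), was closer to Gm26917. It had 641, 447 and 873 CPM in the knockout replicates, against 574, 1535 and 1084 CPM in wild type. As for Gm26917, knockout replicate 6 was lowest, then wild type replicate 1 and knockout replicate 5, but wild type replicate 3 was highest. Its log2 fold change was -0.70 (edgeR adjusted p = 0.638). The 4 tested genes of this locus and of rRNA-like sequence, Gm26917 included, lay below 0 on the log2 scale, with a median of -0.90, and 0 passed by edgeR, DESeq2 or limma-voom (0 at an unadjusted p under 0.05). Without wild type replicate 3, Lars2 and CT010467.1 of this list turned to 0.0054 and 1.72. The patterns most like Gm26917 were those of Setd1b, a histone methyltransferase (0.144), Bcl9l, a Wnt coactivator (0.154), and Lrrc29 (0.176), with a candidate median of 0.758.

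**Figure D2:**
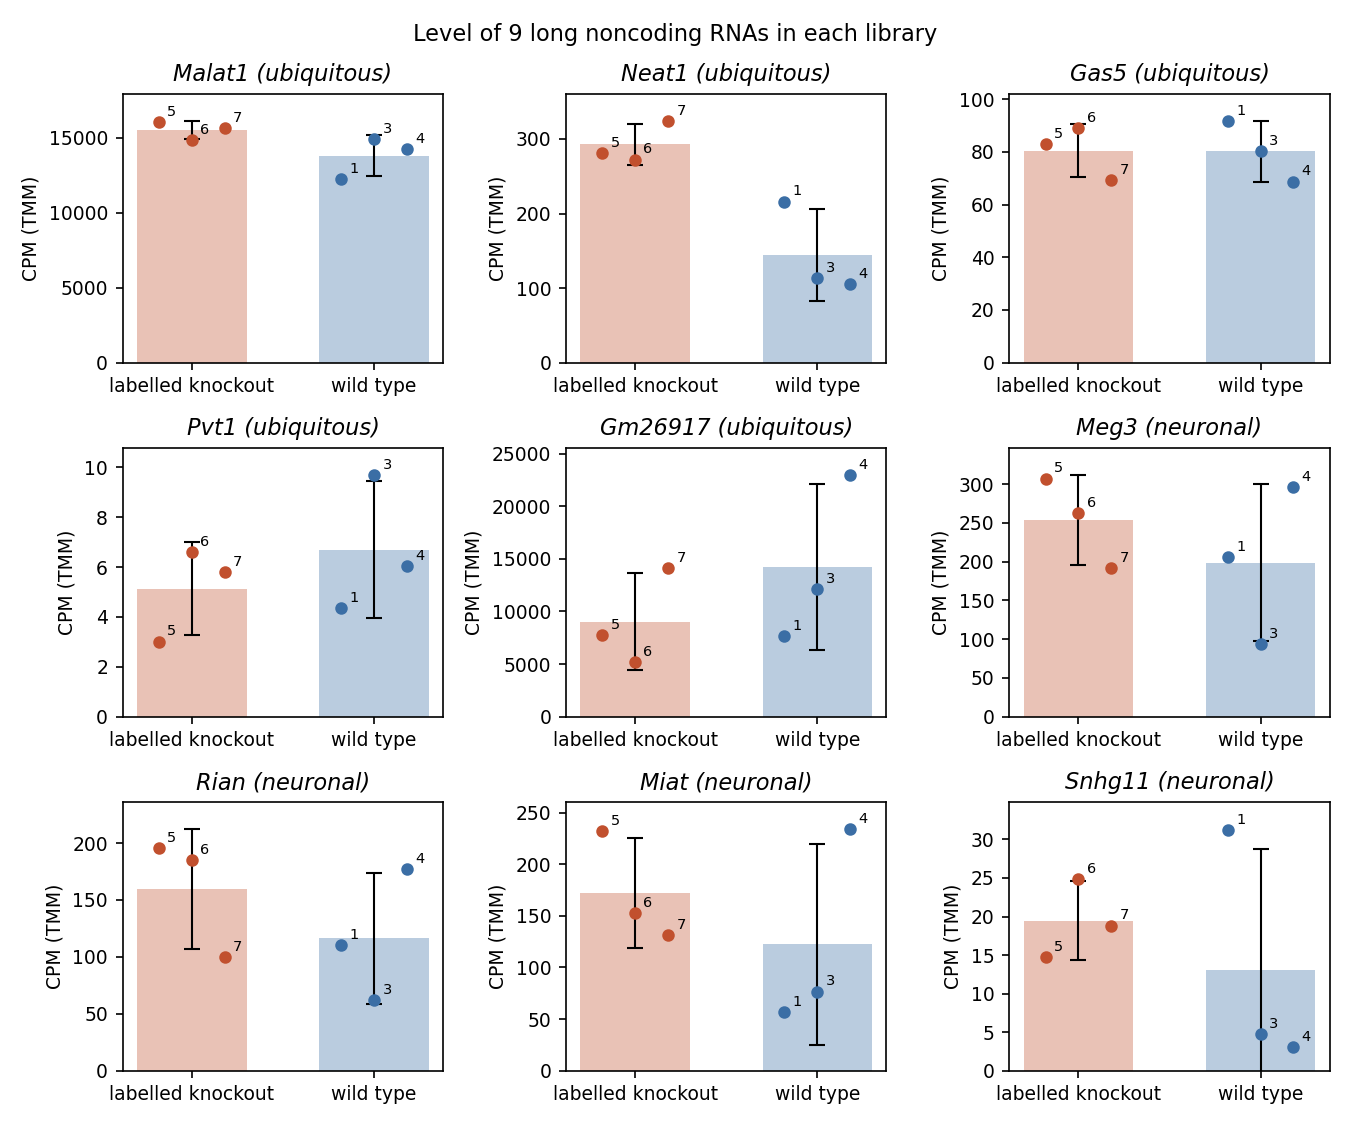
CPM (TMM-scaled) of the 9 genes in each library, labelled knockout left and wild type right. Points are libraries with their replicate number, bars are means and whiskers 1 SD (n = 3 each), with the lower whisker of Snhg11 in wild type cut at 0. Neat1 alone has groups that do not overlap.

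Meg3 (chromosome 12, 109541001 to 109571726, plus strand) is the first long noncoding RNA of the Dlk1-Dio3 domain, and its own promoter is known to depend on a cAMP response element. The ratio of counts of Rian, farther along the same strand, to those of Meg3 lay between -0.94 and -0.50 on the log2 scale in all libraries. Whether both RNAs are transcribed from the Meg3 promoter was not tested. The RefSeq promoter window (GRCm38.p6, chr12:109540746-109541045, plus strand, 250 bases before to 50 after the start) has that element, TGACGTCA, in capitals.
Meg3: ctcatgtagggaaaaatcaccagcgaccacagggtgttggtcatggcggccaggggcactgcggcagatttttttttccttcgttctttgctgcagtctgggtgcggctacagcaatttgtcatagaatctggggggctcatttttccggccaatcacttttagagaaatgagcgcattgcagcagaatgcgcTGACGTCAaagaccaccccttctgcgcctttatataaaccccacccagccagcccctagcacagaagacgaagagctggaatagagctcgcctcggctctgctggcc
TGACGTCA reads the same on both strands and occurred in 1.79% of 32851 promoter windows. Windows were given for 6 of the 9 genes, with 2 windows each for Meg3 and Gas5. The motif stood in 1 of the 2 windows of Meg3, the one printed, in 1 of the 2 of Gas5, and in no other window of the 6 genes. A match is a description of the letters, not a site.

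Meg3 had 307.3, 262.2 and 191.4 CPM in knockout replicates 5, 6 and 7, against 206.3, 93.5 and 296.4 CPM in wild type replicates 1, 3 and 4. Wild type replicate 3 was lowest and wild type replicate 4 stood among the libraries labelled knockout. The estimate on the log2 scale was 0.35 ± 0.39 (SE), with an edgeR adjusted p of 0.783 and 0.675 to 2.41 as the 95% interval of the fold.

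Rian (109603940 to 109661716, plus strand), which carries snoRNAs and the microRNA genes Mir341, Mir370 and Mir1188, had 195.3, 184.9 and 99.4 CPM in knockout replicates 5, 6 and 7, against 110.2, 61.9 and 176.9 CPM in wild type replicates 1, 3 and 4. The lowest and highest libraries were those of Meg3. The estimate on the log2 scale was 0.46 ± 0.40 (SE), with an edgeR adjusted p of 0.729. The log2 ratio of Rian to Meg3 counts was -0.70 ± 0.22 in the libraries labelled knockout and -0.75 ± 0.15 in wild type (SD, n = 3 each), a difference of 0.048 (exact permutation test, two-sided p = 0.8). The 13 snoRNA genes inside Rian together had 89, 43 and 47 counts in knockout replicates 5, 6 and 7, against 41, 11 and 44 counts in wild type replicates 1, 3 and 4.

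The rest of the domain was scarce. Mirg, a microRNA host farther along, had 12.1 ± 3.62 CPM in the libraries labelled knockout and 10.9 ± 7.71 CPM in wild type (SD, n = 3 each; edgeR adjusted p = 0.934). Dlk1, a Notch-like protein of the paternal chromosome, had between 0 and 9 counts per library, Dio3, a thyroid hormone deiodinase, between 0 and 5, and Rtl1, a retrotransposon-derived gene, 0 in all. The 3 tested of 6 domain genes lay above 0 on the log2 scale and 0 passed by edgeR, DESeq2 or limma-voom (0 at an unadjusted p under 0.05).

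Miat (chromosome 5, 112213228 to 112229395, minus strand) had 232.3, 152.5 and 131.3 CPM in knockout replicates 5, 6 and 7, against 56.5, 76.7 and 234.4 CPM in wild type replicates 1, 3 and 4. Wild type replicates 1 and 3 were lowest, and wild type replicate 4 was the highest of all 6. The estimate on the log2 scale was 0.49 ± 0.52 (SE), with an edgeR adjusted p of 0.772 and a 95% interval of the fold from 0.604 to 3.27. Miat shares 24.3% of its exon bases with Gm26953 on the opposite strand, which had 14 counts over the 6 libraries, against 19266 on Miat. Beside it on the chromosome, Crybb1, a crystallin gene that microglia also express, had 185 ± 17.2 CPM in the libraries labelled knockout and 247 ± 27.2 CPM in wild type (SD, n = 3 each; edgeR adjusted p = 0.637). The groups of Crybb1 did not overlap, with knockout lower, and 13% of all tested genes did not overlap in either direction.

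Among the genes nearest to Miat in pattern were Ankrd6, a Wnt pathway protein, and Dlx1, a homeobox factor of GABAergic interneuron development, with root mean square differences of 0.075 and 0.091, against a candidate median of 0.829. Dlx1 had 182.3, 125.7 and 95.2 CPM in knockout replicates 5, 6 and 7, against 47.2, 53.9 and 176.5 CPM in wild type replicates 1, 3 and 4. As for Miat, wild type replicates 1 and 3 were lowest. For Meg3 the nearest genes were Rab3c, a synaptic vesicle GTPase (0.077), Mturn (0.095) and Pcdhb19, a clustered protocadherin (0.107), with a median of 0.641. For Rian they were Mfsd6 (0.111), Il1rapl1, a synaptic adhesion receptor (0.111), and Hrk, a pro-apoptotic BH3 protein (0.126), with a median of 0.657.

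Snhg11 (chromosome 2, 158375638 to 158386145, plus strand), which GENCODE M21 lists as protein-coding, followed another pattern. It had 14.7, 24.9 and 18.8 CPM in knockout replicates 5, 6 and 7, against 31.2, 4.71 and 3.08 CPM in wild type replicates 1, 3 and 4. Wild type replicate 1, the lowest library for Miat, was the highest for Snhg11, and wild type replicate 4, the highest for Miat, was the lowest. The highest wild type library was 10.1 times the lowest. The estimate on the log2 scale was 0.56 ± 0.79 (SE), with an edgeR adjusted p of 0.834 and a 95% interval of the fold from 0.410 to 5.28. Without wild type replicate 1 it was 2.33 and passed (edgeR adjusted p = 0.0373, range over its alternatives 0.0373 to 1). The nearest genes were Egr2, an immediate early transcription factor (0.200), Adcy1, a neuronal adenylyl cyclase (0.264), and Gda, guanine deaminase (0.266), with a median of 1.24.

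Marker sums for classes of neuron did not all rank the libraries alike. The 18 mature neuron markers summed to 1214, 939.9 and 679.6 CPM in knockout replicates 5, 6 and 7, against 511.6, 352.9 and 1019 CPM in wild type replicates 1, 3 and 4. Wild type replicate 3 was lowest and knockout replicate 5 highest, as for Meg3 and Rian. The 11 GABAergic markers, Dlx1 among them, ranked the 6 libraries as the mature neuron markers did. They summed to 1085, 678.8 and 590.0 CPM in the knockout replicates, against 348.9, 259.9 and 848.1 CPM in wild type. The 5 measured immature neuron markers, Dcx among them, summed to 1444, 1062 and 731.9 CPM in the knockout replicates, against 412.0, 431.7 and 1483 CPM in wild type, which ranked the 6 libraries as Miat did. The 8 glutamatergic markers summed to 79.1, 63.0 and 98.3 CPM in the knockout replicates, against 106.9, 30.1 and 27.4 CPM in wild type, with wild type replicate 1 highest and wild type replicates 3 and 4 lowest, as for Snhg11. No defining marker in these lists was at 0 in every library, and none passed by edgeR, DESeq2 or limma-voom. At an unadjusted edgeR p under 0.05 there was 1 of the 11 GABAergic markers and 0 in the other lists, against 7.25% of all tested genes. Without wild type replicate 1, 1 of 17 tested mature neuron markers passed, where 1.77% of all tested genes passed as higher. The part of neuron content in the levels of the 4 RNAs was not tested.

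Set against the mature neuron markers of the same library, the differences between groups were small or uneven. The log2 ratio of Meg3 to the summed markers was -1.88 ± 0.085 in the libraries labelled knockout and -1.67 ± 0.32 in wild type, that of Miat -2.46 ± 0.14 in knockout and -2.50 ± 0.59 in wild type, and that of Snhg11 -5.59 ± 0.67 in knockout and -6.20 ± 2.16 in wild type (SD, n = 3 each). Exact permutation tests gave two-sided p of 0.4, 1 and 0.8. The value of Snhg11 ran from -8.36 to -4.03 within wild type alone.

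**Figure D3:**
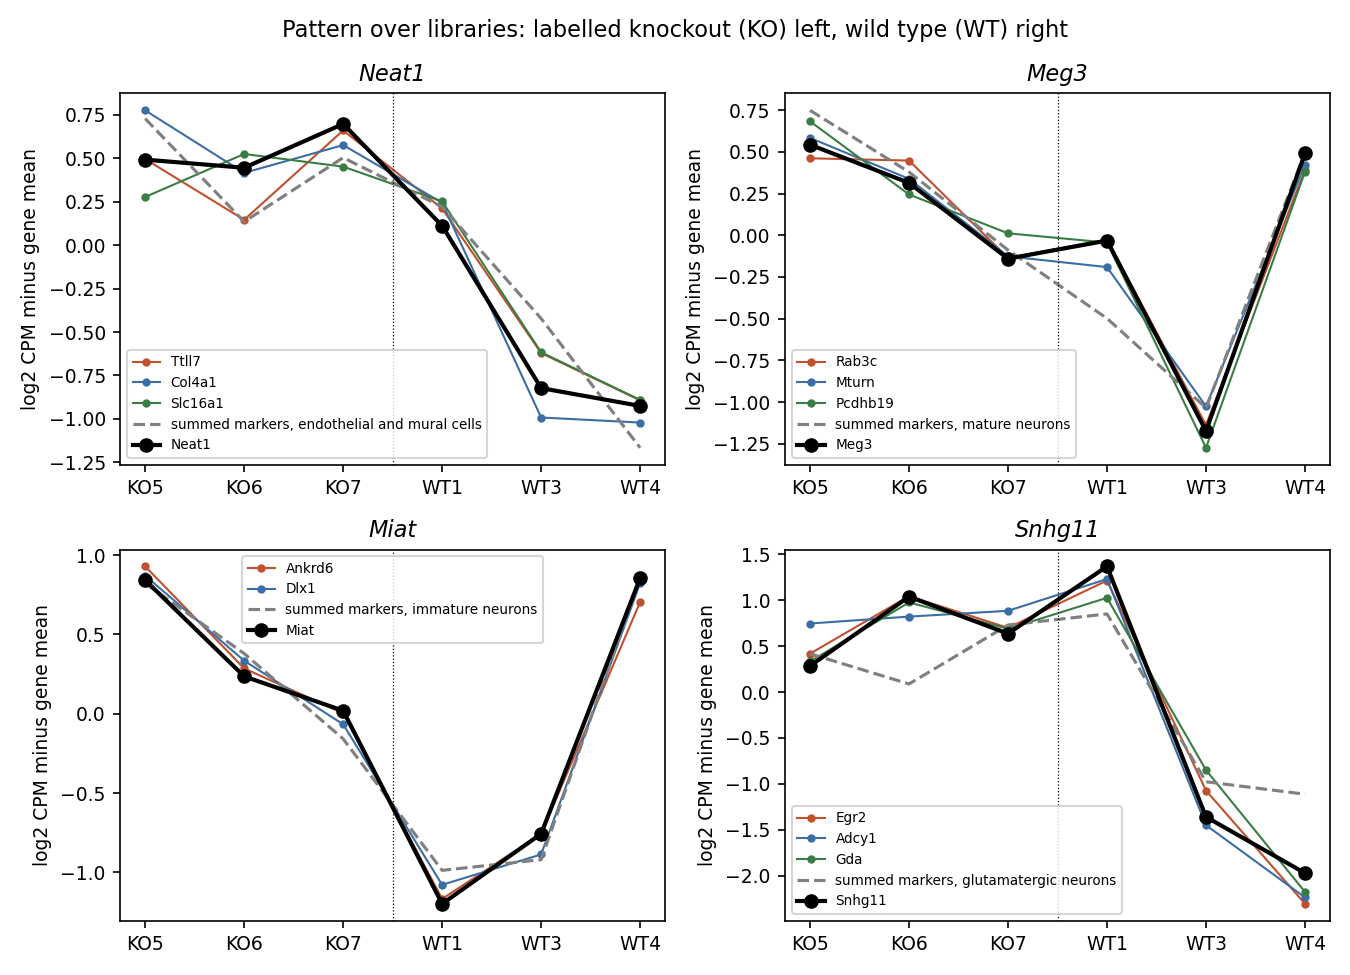
Log2 CPM minus the gene's mean over the 6 libraries for Neat1, Meg3, Miat and Snhg11 (black), protein-coding genes among the 3 nearest to each (coloured) and a summed marker list (grey, dashed), with labelled knockout libraries left of the dotted line and wild type right. Miat peaks in knockout replicate 5 and wild type replicate 4, whereas Snhg11 is lowest in wild type replicates 3 and 4.

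Between the genotypes, none of the 9 genes passed an adjusted p of 0.05. By edgeR 0 of 9 were called, where 0.00581% of all tested genes were (1 of 17221, the pseudogene Rpsa-ps10). At an unadjusted p under 0.05 there was 1 of 9, Neat1, against 7.25% of all tested genes. DESeq2 also called 0 of 9, where it called 0.116% of all genes, and limma-voom 0 of 9, where it called 0.00581%. The estimates of all 4 neuronal genes lay above 0 on the log2 scale (median 0.47). So did 3 of the 5 ubiquitous genes (median 0.0029), with Gas5 barely so at 0.0029. Above 0 were 7965 of the 17221 tested genes (median -0.029) and 416 of the 1354 tested genes of long noncoding RNA biotypes (median -0.25). Most neuron markers also lay above 0: 17 of 18 mature (median 0.44) and 11 of 11 GABAergic (median 0.54). So did 4 of 5 immature (median 0.70) and 6 of 8 glutamatergic markers (median 0.13). With a term for libraries with and without Xist, chosen after the data were seen, Meg3 and Rian turned to -0.055 and -0.23. That term set apart knockout replicates 5 and 6, with 0 and 3 Xist counts. These estimates thus compare knockout replicate 7 alone with wild type and do not describe the knockout group. Without wild type replicate 1, Neat1 and Snhg11 were called higher, 2 of 9, where 1.77% of all tested genes were. The remaining wild type libraries, replicates 3 and 4, had the most reads assigned to no counted feature (57.7% and 58.2%, against 39.95% to 51.2% in the other libraries). Such reads need not lie outside genes, since intronic reads can be among them. The part of this difference in those calls was not tested.

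**Figure D4:**
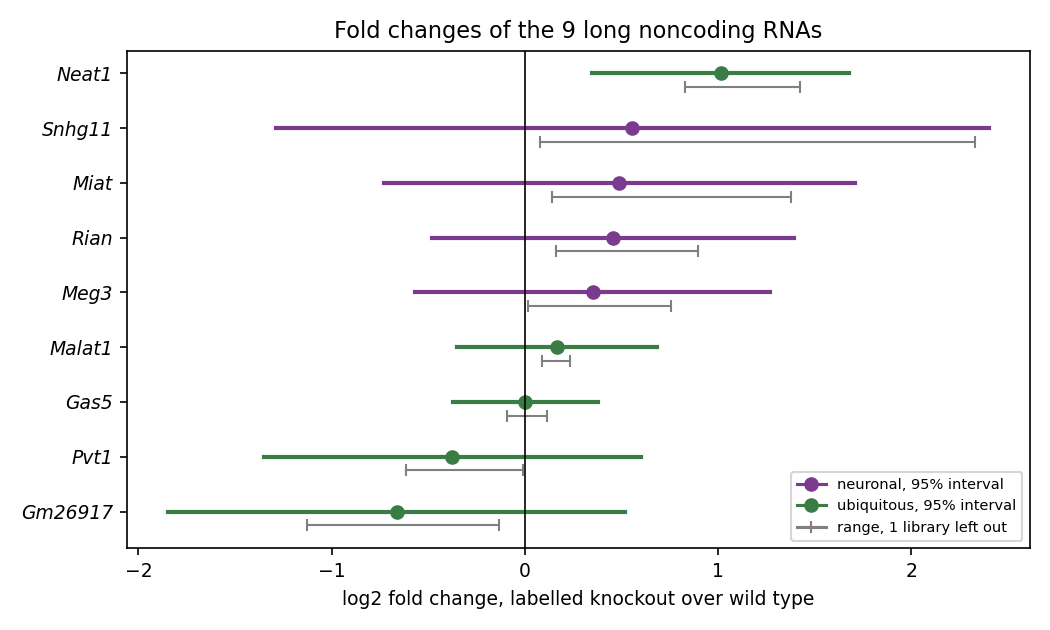
Difference on the log2 scale (libraries labelled knockout over wild type) for the 9 genes, with 95% intervals from the edgeR fit (coloured by class) and the range when each library is left out in turn (grey). The interval of Neat1, from 0.35 to 1.68, is the only one that does not reach 0.

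Other long noncoding RNAs of brain and immune cells gave no call either. Of 33 listed, 19 were tested, 0 passed by edgeR, DESeq2 or limma-voom and 4 had an unadjusted edgeR p under 0.05 (7.25% of all tested genes did), with a median log2 fold change of 0.070. Rmst, a neural long noncoding RNA, had 20.4, 9.05 and 9.81 CPM in knockout replicates 5, 6 and 7, against 5.29, 1.81 and 4.11 CPM in wild type replicates 1, 3 and 4, which did not overlap (log2 difference 1.78 ± 0.48, SE, edgeR adjusted p = 0.637). Trp53cor1, known as lincRNA-p21, had 9.38 ± 1.49 CPM in knockout and 14.3 ± 1.38 CPM in wild type, and Jpx, a neighbour of Xist that activates it, had 8.46 ± 2.30 CPM in knockout and 16.9 ± 6.90 CPM in wild type (SD, n = 3 each; edgeR adjusted p = 0.637 for both). The groups of Trp53cor1 did not overlap, with knockout lower, and those of Jpx did. Of all tested genes, 13% had groups that did not overlap, in either direction. Kcnq1ot1, an imprinted RNA that silences neighbouring genes, had 197 ± 5.07 CPM in the libraries labelled knockout and 220 ± 68.5 CPM in wild type (SD, n = 3 each).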

How the data were processed

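The deposited values are raw read counts per gene, 1 file per library, neither normalized nor pooled by the authors. Per the submitters' processing notes, Trim Galore 0.60, STAR 2.7, HTSeq 1.31 and mm10 were used, and per the labels' protocols the kit was for stranded total RNA. The sources used here do not give the annotation or the strand setting. The strand was checked on genes of at least 300 exon bases that exons of other genes cover wholly on a single strand. Of 231 covered by the opposite strand 134 had counts, against 4 of 152 covered by the same strand, so strand was kept in counting. The median counts over the 6 libraries were 1 and 0. Summary lines, 5 per file, were left out of totals: reads assigned to no counted feature were 39.95% to 58.2% of reads and ambiguous reads 1.94% to 14.5%. Identifiers were matched to GENCODE M21 (GRCm38), 53274 of 53379, and sequences came from its transcripts and RefSeq tables.

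Testing used edgeR 4.0.16 in R 4.3.3, its quasi-likelihood fit with TMM, the default expression filter, robust shrinkage and Benjamini-Hochberg adjustment over 17221 genes, two-sided, at 0.05. It was tested on simulated data. A count of 0 allows 3 counts, or 0.0982 to 0.220 CPM. Ratios had 0.5 added to each count. Libraries of 1 group differed beyond sampling noise (chi-square per degree of freedom 54.9 or more).

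Named were the 9 genes, from each further list the 3 smallest p-values and 2 highest levels, as space allowed, and for each gene the 3 protein-coding genes of at least 5 CPM nearest in pattern, of which 1 is not reported here. Rpsa-ps10 and the Dlk1, Dio3, Rtl1 and Gm26953 values were added after they were seen. The genes and lists were chosen with earlier results of these data known. Alternatives were other scalings, DESeq2 1.42.0, limma-voom (limma 3.58.1), other filters, no robust shrinkage, rRNA genes or other biotypes left out, each library left out, and an Xist term added later.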

Additional observations from a re-analysis of the deposited data

How the results depend on the processing

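Over 17 alternatives (16 where a gene was left out of a setting), Malat1, Neat1, Pvt1, Gm26917, Miat and Snhg11 kept their direction, but not their size. Leaving out 1 library, Malat1 ran from 0.087 to 0.23, Neat1 from 0.83 to 1.42, Pvt1 from -0.61 to -0.0091 (without wild type replicate 3), Gm26917 from -1.13 (without knockout replicate 7) to -0.13 (without wild type replicate 4), Miat from 0.14 (without wild type replicate 1) to 1.38 (without wild type replicate 4), Snhg11 from 0.080 (without wild type replicate 4) to 2.33, Meg3 from 0.018 (without wild type replicate 3) to 0.76 and Rian from 0.16 to 0.89. The Xist term left knockout replicate 7 alone to compare with wild type, and all estimates with it rest on that library. With it Gm26917 was -0.014, Pvt1 -0.20 and Miat 0.10. The number of genes called, 1 in the analysis as reported, was 20 with DESeq2 and 5 without a filter on low counts. It was 0 among long noncoding RNA biotypes alone, where Rpsa-ps10 is not tested. It ran from 1 to 321 when 1 library was left out, the highest without wild type replicate 1, and calls among the 9 genes from 0 to 2. Gas5 turned to -0.0046 with upper-quartile scaling, -0.019, -0.069 and -0.094 without knockout replicate 5, knockout replicate 6 and wild type replicate 4, and -0.21 with the Xist term, and reached 0.11 without knockout replicate 7. With the Xist term Meg3 turned to -0.055, Rian to -0.23, Snhg14 to -0.088, Mirg to -0.41, Nudt21 to -0.010, Matr3 to -0.074, Hnrnpk to -0.073, Srsf1 to -0.0092 and Srsf3 to -0.023. Mirg turned to -0.061 without knockout replicate 5. Leaving out 1 library, Mirg ran from -0.22 to 0.84, Myc from -1.15 to 0.045, Lars2 from -1.49 to 0.0054 and CT010467.1 from -3.84 to 1.72, each turned without wild type replicate 3. Sf3b1 turned to 0.060 with library totals and 0.014 without knockout replicate 7. Leaving out 1 library, the difference in log2 ratio ran from -0.051 to 0.17 for Rian to Meg3, and against neuron markers from -0.30 to 0.23 for Miat and from -0.47 to 1.69 for Snhg11. The cause of these turns was not tested. Library totals alone moved the median of all genes by 0.14. No paired analysis was possible because the groups share no replicate number. The smallest counts among the 9 genes were the 52 and 54 of Snhg11 in wild type replicates 3 and 4. Pvt1 had between 77 and 186 counts per library. The part of depth in the spread of these genes was not tested.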
